A study of Mus musculus with 12 samples.

Results

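The genes described here encode subunits of the oxidative phosphorylation system, measured in mouse colon carcinoma tumours with and without APC and with and without doxycycline (Dox). A probe set was taken where its only gene symbol on the array began with Nduf followed by a, b, c, s or v and a digit, with Uqcr, with Cox followed by a digit from 4 to 8 or with Atp5, or was Sdha, Sdhb, Sdhc or Sdhd. This gave 164 probe sets of 81 genes, of 18193 genes on the array, and each gene was read by its brightest probe set, by the mean of the 12 arrays. The 81 genes comprised 35 named for complex I, 4 of complex II, 8 of complex III, 17 of complex IV and 17 of complex V. Of these, 76 were tested (34, 4, 8, 13 and 17), because the mean over all arrays of the other 5 lay under the floor of 5.55, the median of the probe sets on the log2 scale. The 5 were Cox6b2, Cox7a1, Cox7b2, Cox8b and Ndufb4.

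The oxidative phosphorylation system sits in the inner mitochondrial membrane. Complexes I and II take electrons from NADH and succinate, complex III passes them from ubiquinol to cytochrome c, and complex IV passes them to oxygen. Complexes I, III and IV pump protons, and complex V, the ATP synthase, uses the proton gradient to make ATP. Most of the subunits are encoded in the nucleus, and in tumours their level is often set beside that of glycolysis as a second source of ATP.

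RNA of 12 tumours had been hybridised to Affymetrix arrays, 3 for each of 4 groups, and the deposited values are log2 expression values. All tumours were grown from MC38, a colon carcinoma line of the C57BL/6 mouse, carrying an inducible hairpin against Tdo2 (tryptophan 2,3-dioxygenase), after injection into the cecum of C57BL/6 mice. The 4 groups were APC-WT without Dox, APC-WT with Dox, APC-KO without Dox and APC-KO with Dox, where Dox in the drinking water induced the hairpin and APC is the tumour suppressor that restrains Wnt signalling. The labels do not state whether the APC-KO line was 1 clone or a pool, and the deletion and any other difference between the lines cannot be told apart. No tumours lacking the hairpin were among those analysed here, and an effect of Dox itself cannot be told apart from one of the hairpin. Separate animals are not named in the labels for the 3 tumours of a group, and the p-values therefore measure only how these samples vary, which may be technical variation. The series design speaks of cell lines and the sample labels of tumours. The tumours hold host cells, and in bulk RNA fewer cells of a type and less RNA per cell cannot be told apart.

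The arrays of a group correlated at 0.995 to 0.998 over all probe sets, and array medians lay between 5.54 and 5.58. Of the 4 Apc probe sets, the one with the widest gap lay between 7.57 and 7.84 on the 6 APC-WT arrays and between 6.74 and 7.02 on the 6 APC-KO arrays, and the brightest between 8.39 and 8.57 and between 8.19 and 8.41, with a narrow overlap. The deleted exons are not named in the labels, so whether these probe sets lie in the deletion is not known. All 3 Tdo2 probe sets had means between 2.59 and 3.85, under the floor in every group, so the knockdown could not be followed on these arrays. Of 7 colon epithelium markers, Krt20, Vil1, Cdx2 and Muc2 had means under the floor (3.69 to 5.35), and Cdh1 had one of 5.62, close to it. Epcam and Krt8 had means of 7.25 and 9.54, and Krt8 ranged from 7.2 to 11.65 over the arrays.

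Across the promoters that RefSeq gives for these genes (mouse build GRCm38.p6), 66 of the 81 genes were matched. The windows, 250 bases before to 50 bases after each start, were searched on both strands for GCGCATGCG, the core of the site of NRF1, for CCGGAAGT, that of ETS factors such as GABPA, and for AAGATGGCG, that of YY1, factors known for regulating nuclear genes of the respiratory chain. The NRF1 letters were found in 7 of the 66 genes (10.6%) and in 1.95% of all 27025 genes with a promoter. The YY1 letters were found in 6 (9.09%) against 1.64%, and the ETS letters in 5 (7.58%) against 4.31%. The median GC content of the 150 bases before the start was 60.0% for these genes and 54.0% for all promoters. A match of letters is a description and not a site. Of the 18 gene and motif pairs, 1 gene, Uqcr11, held both NRF1 and ETS letters. The 150 bases before the start are printed for the 2 genes with the largest rise in APC-KO tumours, for the 2 genes that passed the test with a whole match before the start and a single start in RefSeq, and for the gene with the largest fall; capitals mark the letters of NRF1 in Ndufa8 and of the ETS core in Uqcrh, both in reverse complement, and the other 3 held none of the 3 motifs.
Ndufa5 (chr6:24527691-24527840, minus strand): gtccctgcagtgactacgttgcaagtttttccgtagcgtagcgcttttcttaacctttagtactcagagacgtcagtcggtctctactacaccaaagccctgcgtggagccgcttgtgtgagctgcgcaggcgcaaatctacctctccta
Ndufa4 (chr6:11907451-11907600, minus strand): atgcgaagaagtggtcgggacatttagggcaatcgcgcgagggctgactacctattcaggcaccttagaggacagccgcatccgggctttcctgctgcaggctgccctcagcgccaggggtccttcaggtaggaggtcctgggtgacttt
Ndufa8 (chr2:36049339-36049488, minus strand): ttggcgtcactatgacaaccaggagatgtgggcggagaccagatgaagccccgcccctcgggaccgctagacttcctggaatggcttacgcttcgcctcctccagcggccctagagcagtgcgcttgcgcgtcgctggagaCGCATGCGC
Uqcrh (chr4:116075071-116075220, minus strand): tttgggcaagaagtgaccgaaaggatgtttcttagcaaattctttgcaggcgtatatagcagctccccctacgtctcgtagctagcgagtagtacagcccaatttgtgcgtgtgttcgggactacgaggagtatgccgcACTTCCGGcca
Cox7a2l (chr17:83514334-83514483, minus strand): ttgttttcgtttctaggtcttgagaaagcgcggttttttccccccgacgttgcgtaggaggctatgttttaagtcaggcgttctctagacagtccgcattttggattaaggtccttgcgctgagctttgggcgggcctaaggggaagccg

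Expression of the subunit genes differed between APC-KO and APC-WT tumours in many single genes, by small amounts and mostly upward. Averaged over the Dox states, 34 of 76 genes passed the test at an adjusted p under 0.05 (44.7%), against 36.5% of all 11070 tested genes. Of the 34, 28 were higher in APC-KO (36.8% of 76, against 20.9% of all tested genes) and 6 were lower (7.89%, against 15.6%). With quantile normalization 25 were higher and 10 lower. The test was limma's moderated test on all 12 arrays, with the Benjamini-Hochberg adjustment over all tested genes. The values of 6 and 6 arrays did not overlap for 13 genes that were higher (8.93% of all tested genes) and for 1 that was lower (6.67%). The differences ranged from -0.27 for Cox7a2l to 0.47 for Ndufa5, with a median of 0.06 for the subunit genes (0.03 with quantile normalization) and 0.01 for all tested genes. On a linear scale these are folds of 0.832 and 1.38.

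**Figure D1:**
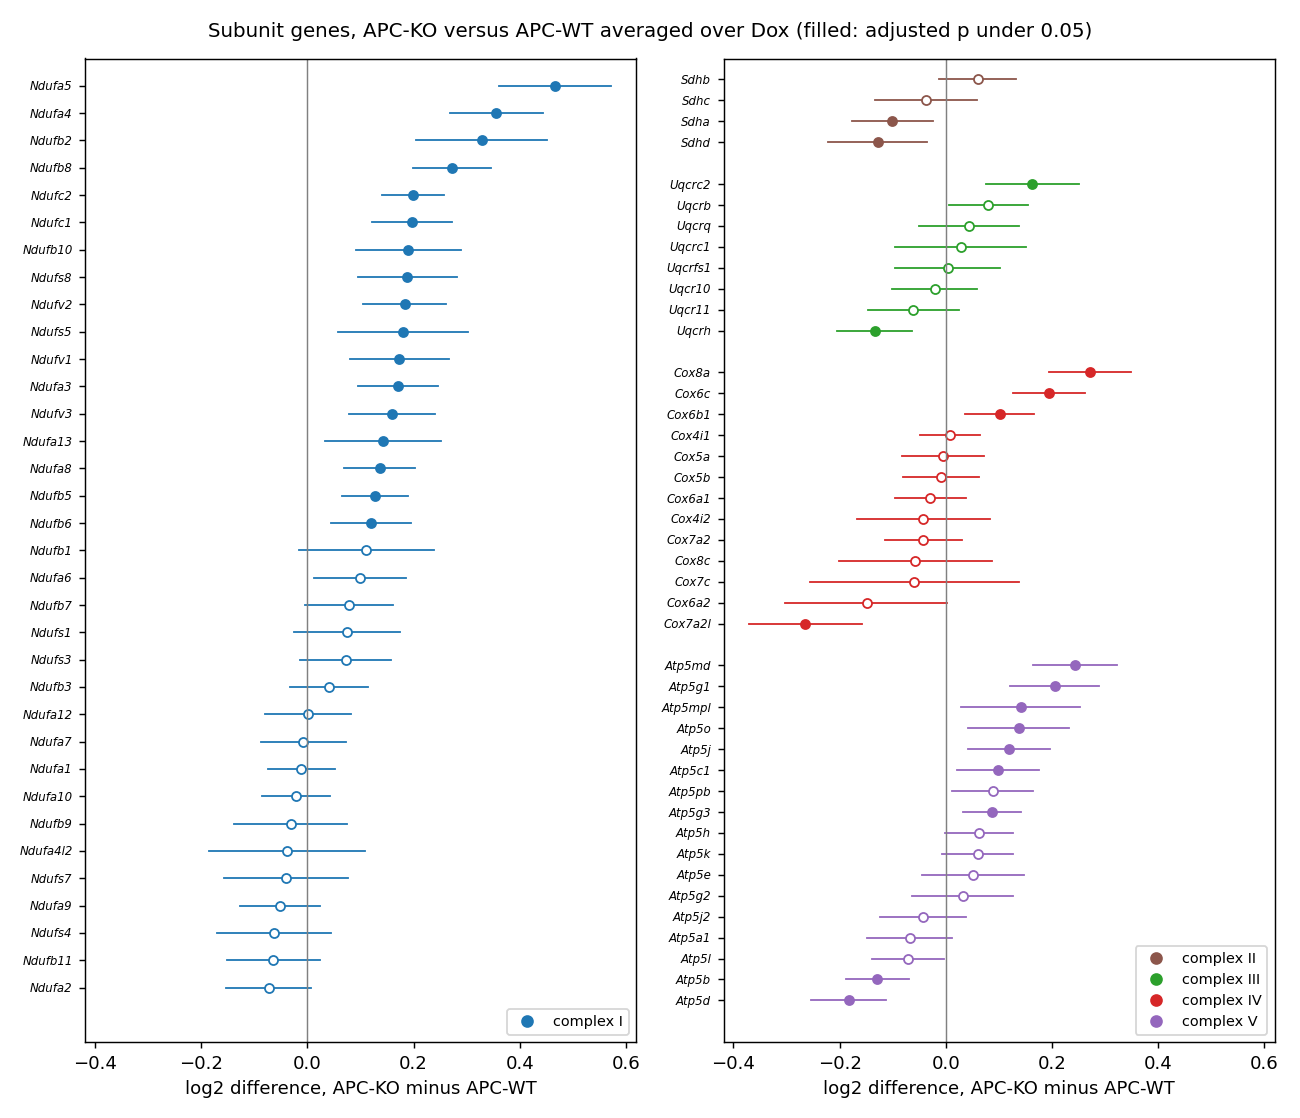
Log2 difference between the 6 APC-KO and the 6 APC-WT arrays (x axis) for the 76 tested subunit genes, ordered by difference within each complex; lines are 95% confidence intervals of the limma fit, and filled points passed at an adjusted p under 0.05. Among the genes named for complex I, 17 points are filled and all lie to the right of 0. Complexes II to V hold filled points on both sides or, for complex II, on the left only.

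Counted by gene name, complex I includes Ndufa4 and its paralog Ndufa4l2, of which 1 was higher. So counted, complex I, the NADH dehydrogenase, held 17 of the 28 higher genes and none of the 6 lower ones, out of 34 tested. Of all tested genes, 20.9% were higher and 15.6% lower. Complex I also made up 34 of the 76 tested subunit genes, so part of its count of higher genes goes with its size. The median difference of complex I was 0.12, and 0.10 with quantile normalization. The median of its 34 genes, each set relative to its own mean, lay between -0.10 and 0.00 on the APC-WT arrays and between 0.00 and 0.09 on the APC-KO arrays, and the 2 ranges did not overlap (the highest APC-WT array was at -0.001 and the lowest APC-KO array at 0.002). By position in the complex, as assigned here by hand, 11 of 18 genes of the membrane arm were higher. So were 3 of 9 of the NADH-binding part and 2 of 4 of the part that passes electrons to ubiquinone. These counts too stand against 20.9% of all tested genes, and the last 2 parts hold few genes. The other of the 17 was Ndufa4, whose protein carries a complex I name and is now assigned to complex IV.

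Ndufa5, an accessory subunit of the arm in the matrix, had the largest difference of all members. Its values were 10.16, 10.20 and 9.98 in APC-WT without Dox, 10.05, 9.90 and 9.96 in APC-WT with Dox, 10.47, 10.45 and 10.42 in APC-KO without Dox, and 10.49, 10.70 and 10.54 in APC-KO with Dox. Every APC-KO array lay above every APC-WT array. The averaged difference was 0.47 ± 0.05 (SE, 95% confidence interval 0.36 to 0.57, adjusted p = 8.68e-06 in limma). Its second probe set gave 0.48. The RefSeq start farthest upstream, printed above, lies on chromosome 6.

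Ndufa4 followed, with 11.29, 11.38 and 11.29 in APC-WT without Dox, 11.54, 11.41 and 11.32 in APC-WT with Dox, 11.68, 11.74 and 11.59 in APC-KO without Dox, and 11.80, 11.81 and 11.75 in APC-KO with Dox. Again the genotypes did not overlap, and the closest arrays were 11.54 and 11.59. The difference was 0.36 ± 0.04 (SE, adjusted p = 1.85e-05). Its paralog Ndufa4l2, known as a target of hypoxia-inducible factor, was dim, with a mean of 6.24 near the floor, and its difference was -0.04 ± 0.07 (adjusted p = 0.697).

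Among the membrane-arm genes, Ndufb2 ranged from 10.17 to 10.52 with a median of 10.25 on the 6 APC-WT arrays and from 10.40 to 10.78 with a median of 10.64 on the 6 APC-KO arrays. The genotypes overlapped through 1 APC-WT array with Dox at 10.52, and the difference was 0.33 ± 0.06 (SE, adjusted p = 0.000629). Ndufb8, whose protein is a common blot marker of assembled complex I, ranged from 10.71 to 10.79 (median 10.73) in APC-WT and from 10.94 to 11.09 (median 11.00) in APC-KO. These ranges did not overlap, and the difference was 0.27 ± 0.03 (adjusted p = 4.42e-05). Ndufc2 was at 11.37 to 11.43 in APC-WT and 11.56 to 11.70 in APC-KO, a difference of 0.20 ± 0.03 (adjusted p = 9.49e-05) without overlap. Ndufa8, whose promoter holds the NRF1 letters, was at 10.89 to 10.99 and 11.02 to 11.12, again without overlap, with a difference of 0.14 ± 0.03 (adjusted p = 0.00383).

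Of the subunits that carry the redox groups of complex I, the flavoprotein subunit Ndufv1 rose by 0.17 ± 0.04, its partner Ndufv2 by 0.18 ± 0.04 and the iron-sulphur subunit Ndufs8 by 0.19 ± 0.04 (adjusted p = 0.00674, 0.00152 and 0.00417). Ndufs1 and Ndufs7, which also hold iron-sulphur clusters, did not pass, with differences of 0.07 and -0.04 (adjusted p = 0.233 and 0.599). The lowest difference in the complex was that of Ndufa2, -0.07 ± 0.04 (adjusted p = 0.139). The calls of 14 of the 17 higher genes were kept whichever array was left out. That of Ndufb6 (0.12 ± 0.04) ended without APC-WT Dox replicate 2 (adjusted p = 0.0513). That of Ndufs5 (0.18 ± 0.06) ended when any of 3 arrays was left out: replicate 3 of APC-WT without Dox (adjusted p = 0.0556), replicate 2 of APC-WT with Dox (0.0578) and replicate 3 of APC-KO with Dox (0.0587). That of Ndufa13 (0.14 ± 0.05) ended without any 1 of 8 arrays, with adjusted p up to 0.105 without APC-WT Dox replicate 3.

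**Figure D2:**
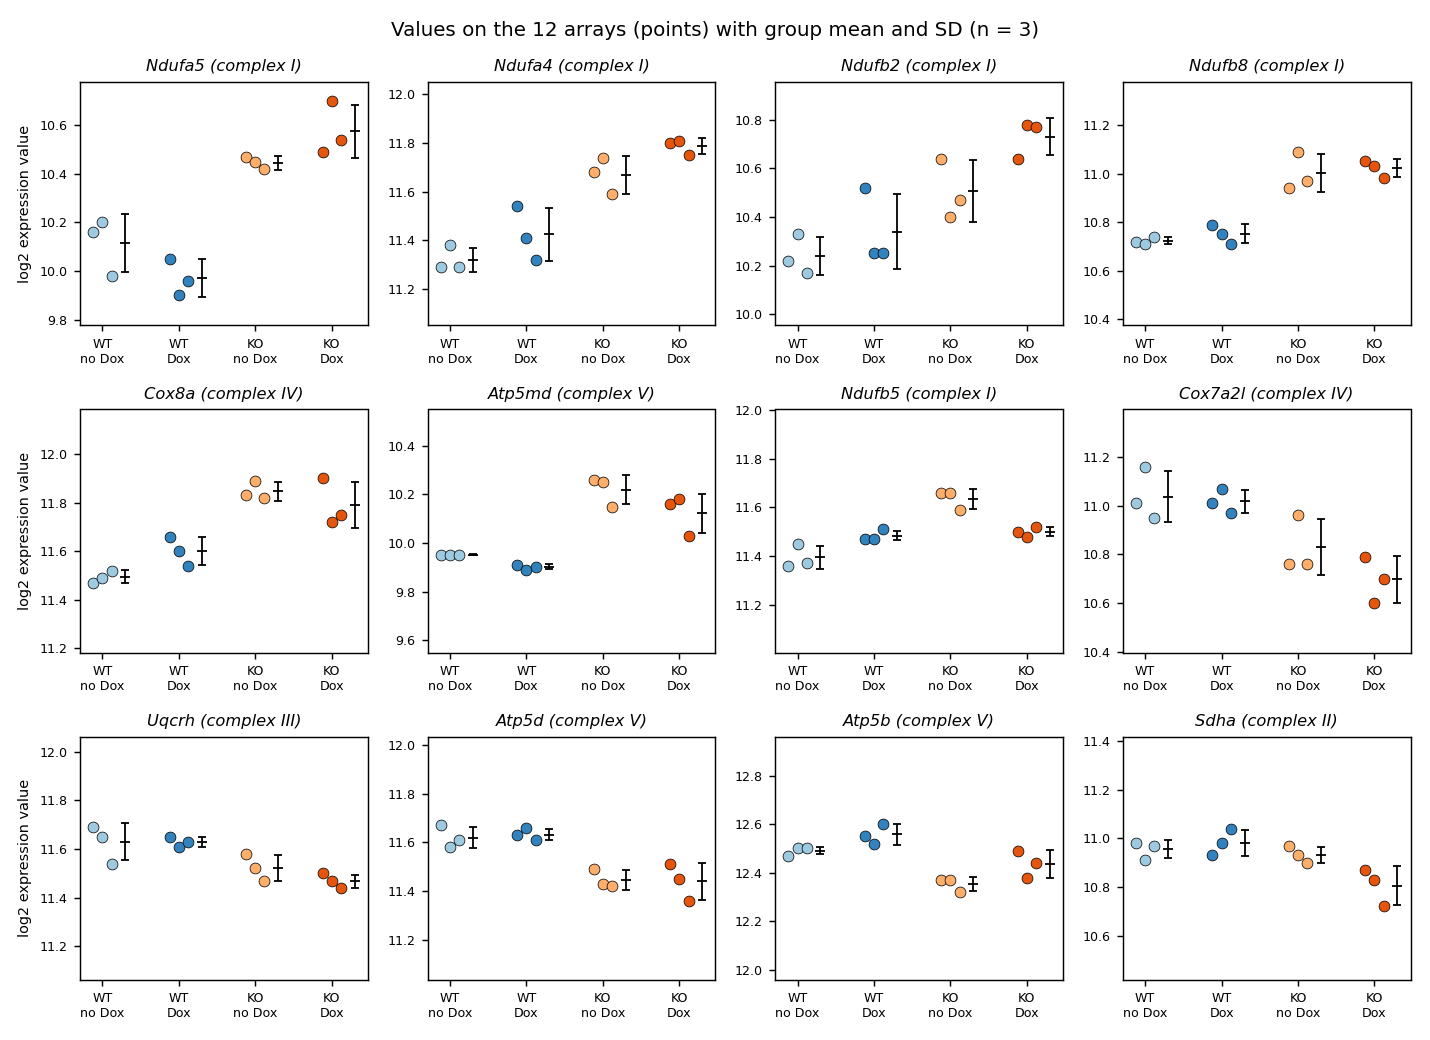
Log2 expression values of 12 subunit genes (y axis, each panel 1 log2 unit high) on the 12 arrays by group, with the mean and SD of each group of 3 beside the points. Ndufa5, Ndufa4, Ndufb8, Cox8a and Atp5md show every APC-KO point above every APC-WT point, and Atp5d shows the opposite order.

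Complex II, succinate dehydrogenase, which also serves the TCA cycle, had 2 lower genes of 4 tested and no higher one. Of all tested genes, 15.6% were lower and 20.9% higher. Sdhd, a membrane anchor, ranged from 10.17 to 10.31 (median 10.23) in APC-WT and from 9.99 to 10.22 (median 10.11) in APC-KO, a difference of -0.13 ± 0.04 (adjusted p = 0.0332). Sdha, the flavoprotein, ranged from 10.91 to 11.04 (median 10.98) and from 10.72 to 10.97 (median 10.88), a difference of -0.10 ± 0.04 (adjusted p = 0.0399). The genotypes overlapped for both, and each call ended without any 1 of 8 arrays, with adjusted p up to 0.0895 for Sdhd and 0.102 for Sdha, both without APC-WT Dox replicate 3. The dimmer second probe set of Sdhd gave 0.10, and the mean of both probe sets gave -0.01 (adjusted p = 0.85). Sdhc gave -0.04 ± 0.04 and Sdhb, the iron-sulphur subunit, 0.06 ± 0.03 (adjusted p = 0.542 and 0.181).

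Complex III, the cytochrome bc1 complex, had 1 higher and 1 lower gene of 8 (12.5% each, against 20.9% and 15.6% of all tested genes). Uqcrc2, a core protein, ranged from 10.40 to 10.55 (median 10.43) in APC-WT and from 10.52 to 10.76 (median 10.60) in APC-KO, a difference of 0.16 ± 0.04 (adjusted p = 0.00698). Uqcrh, the hinge protein beside cytochrome c1, ranged from 11.54 to 11.69 (median 11.64) and from 11.44 to 11.58 (median 11.48), a difference of -0.13 ± 0.03 (adjusted p = 0.0059). Both overlapped between genotypes in a narrow band, and both calls were kept whichever array was left out. The Rieske protein gene Uqcrfs1 gave 0.00 ± 0.05 (adjusted p = 0.958).

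Complex IV, cytochrome c oxidase, had 3 higher (23.1%) and 1 lower gene (7.69%) of 13, not counting Ndufa4. These shares stand against 20.9% and 15.6% of all tested genes. The median was -0.03, and -0.001 with the mean of probe sets. Cox8a, the common isoform of the small subunit VIII, was at 11.47, 11.49 and 11.52 in APC-WT without Dox, 11.66, 11.60 and 11.54 with Dox, 11.83, 11.89 and 11.82 in APC-KO without Dox, and 11.90, 11.72 and 11.75 with Dox. The genotypes did not overlap, and the difference was 0.27 ± 0.04 (adjusted p = 6.97e-05). Cox6c was at 12.43 to 12.51 in APC-WT and 12.58 to 12.76 in APC-KO, a difference of 0.20 ± 0.03 (adjusted p = 0.000336), also without overlap. Cox6b1, which faces cytochrome c, gave 0.10 ± 0.03 (adjusted p = 0.0174) with overlap.

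The protein of Cox7a2l is known as a factor that joins complexes III and IV into supercomplexes. Whether it does so in the mouse strain of these tumours was not tested. Cox7a2l was the gene with the largest fall. It was at 11.01, 11.16 and 10.95 in APC-WT without Dox, 11.01, 11.07 and 10.97 with Dox, 10.76, 10.96 and 10.76 in APC-KO without Dox, and 10.79, 10.60 and 10.70 with Dox. A single APC-KO array without Dox, at 10.96, reached into the APC-WT range. The difference was -0.27 ± 0.05 (adjusted p = 0.001), and the other 2 probe sets gave -0.27 and -0.31. Cox4i1, Cox5a, Cox5b, Cox6a1 and Cox7a2, common subunits with means between 11.77 and 13.12, gave differences between -0.04 and 0.01, none of which passed. Other probe sets above the floor gave 0.079 and 0.092 for Cox5a and 0.062 for Cox6a1. They gave -0.107 for Cox7a2 and -0.075 to 0.021 for Cox5b.

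Of 7 tissue-restricted isoforms of complex IV, 4 had means under the floor and none of the other 3 passed. Cox7a1 and Cox8b, known from heart and skeletal muscle, had means of 3.60 and 4.51, and Cox6b2 and Cox7b2, known from testis, 4.37 and 2.71. Cox6a2, the muscle partner of Cox6a1, had a mean of 6.29 with a difference of -0.15 ± 0.07 (adjusted p = 0.116), Cox4i2, the lung isoform that responds to oxygen, 5.90 with -0.04 ± 0.06 (0.609), and Cox8c 7.73 with -0.06 ± 0.07 (0.538). Cox7c, a common subunit, was read by dim probe sets (6.30 and 7.59), and its difference was -0.06 ± 0.09 (0.65). Of 10 striated muscle markers, 6 had means under the floor and none of the 4 tested passed. The mean of the 10 per array ranged from 4.65 to 5.75 in APC-WT without Dox, 4.52 to 5.67 in APC-WT with Dox, 4.90 to 5.47 in APC-KO without Dox and 4.15 to 5.11 in APC-KO with Dox. The part of muscle RNA in these dim values was not tested.

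Complex V had 7 higher (41.2%) and 2 lower genes (11.8%) of 17, against 20.9% and 15.6% of all tested genes. The 2 lower ones belong to the catalytic F1 head. Atp5d, the delta subunit of the central stalk, was at 11.67, 11.58 and 11.61 in APC-WT without Dox, 11.63, 11.66 and 11.61 with Dox, 11.49, 11.43 and 11.42 in APC-KO without Dox, and 11.51, 11.45 and 11.36 with Dox. It was the single member with all APC-KO arrays below all APC-WT arrays, with a difference of -0.18 ± 0.03 (adjusted p = 0.000755). Atp5b, the catalytic beta subunit, ranged from 12.47 to 12.60 (median 12.51) in APC-WT and from 12.32 to 12.49 (median 12.38) in APC-KO, a difference of -0.13 ± 0.03 (adjusted p = 0.00264). The alpha subunit gene Atp5a1 gave -0.07 ± 0.04 and did not pass (0.173), and the gamma subunit gene Atp5c1 gave 0.10 ± 0.04 (0.044).

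By part of complex V, as assigned here by hand, 2 of 3 genes of the rotor ring and 2 of 4 of the peripheral stalk rose. So did 2 of 5 genes of other membrane subunits and 1 of 5 of the F1 head. Of all tested genes, 20.9% rose. The membrane parts and the stalk also hold most of the 17 tested genes of the complex. Atp5md, whose small protein supports dimers of the synthase, was at 9.89 to 9.95 in APC-WT and 10.03 to 10.26 in APC-KO, a difference of 0.24 ± 0.04 (adjusted p = 0.000203) without overlap. Of the 3 genes that encode the same mature c subunit of the rotor ring, Atp5g1 gave 0.21 ± 0.04 (0.00118), Atp5g3 0.09 ± 0.03 (0.0173) and Atp5g2 0.03 ± 0.04 (0.615). A second Atp5g1 probe set, with a mean of 3.82 under the floor, gave -0.49, and the mean of both turned the gene's difference to -0.14. Of the 4 peripheral stalk genes, Atp5o and Atp5j rose by 0.14 ± 0.04 and 0.12 ± 0.04 (0.0273 and 0.0197), and Atp5pb and Atp5h gave 0.09 and 0.06 without passing. Calls ended without 8 of 12 arrays for Atp5c1 and without 9 for Atp5mpl (0.14 ± 0.05, adjusted p = 0.0491), with adjusted p up to 0.111 and 0.113. Those of Atp5o ended without 5 arrays, with adjusted p up to 0.0715 without APC-WT Dox replicate 2, and that of Atp5j without APC-WT Dox replicate 3 (0.0563).

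The genotype comparison could be made separately without and with Dox. The 2 differences rest on arrays that they do not share, but both tests used 1 estimate of spread from all 12 arrays. Without Dox, 20 of 76 genes passed, 17 higher and 3 lower, against 24.9%, 13.8% and 11.1% of all tested genes. With Dox, 20 passed, 15 higher and 5 lower, against 19.9%, 11.9% and 7.99%. This count was 33 (26 higher) with array quality weights, 13 with the mean of probe sets and also without a variance trend, and 11 with values centred on chromosomal neighbours. The 20 genes are 26.3% of 76. Of each 20, 16 (80.0% of each list) passed in both comparisons in the same direction, and none in opposite directions. Among all tested genes, 1355 passed in both in the same direction and 4 in opposite directions. These 1355 are 49.2% of the 2753 that passed without Dox and 61.5% of the 2205 with Dox. The sign agreed for 69 of 76 genes (90.8%), against 72.1% of all tested genes, and the 2 differences correlated across the 76 genes at Pearson r = 0.78 (0.68 across all tested genes). These genes are not independent replicates, and both comparisons rest on the same pair of lines. With each test fitted on only the groups compared, 32 of the 40 calls were kept. The count without Dox was 16 to 20 when 1 array was left out. The count with Dox was 10 to 19, and fell to 10 without APC-WT Dox replicate 2 or APC-KO Dox replicate 3 and to 13 without APC-WT Dox replicate 3 or APC-KO Dox replicate 2.

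**Figure D3:**
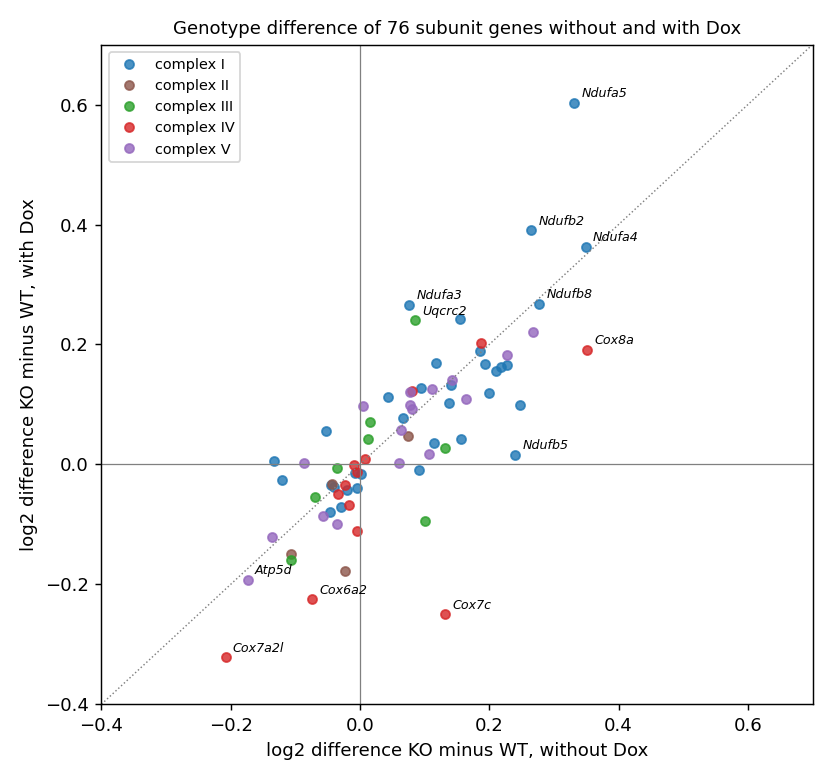
Log2 difference between APC-KO and APC-WT without Dox (x axis) and with Dox (y axis) for the 76 tested subunit genes, coloured by complex; the dotted line marks equal differences. Ndufa5 lies above the line (0.33 without and 0.60 with Dox), Cox8a below it (0.35 and 0.19), and 69 genes have the same sign on both axes.

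Of the 16 shared genes, 13 were higher in APC-KO in both comparisons: Ndufa4, Ndufa5, Ndufa8, Ndufb2, Ndufb8, Ndufc1, Ndufc2, Ndufs8, Ndufv2, Cox6c, Cox8a, Atp5g1 and Atp5md. Cox7a2l, Atp5b and Atp5d were lower in both. The difference of Ndufa5 was 0.33 ± 0.07 in the tumours free of Dox and 0.60 ± 0.07 in those given it (adjusted p = 0.00387 and 4.58e-05), that of Ndufa4 0.35 and 0.36, and that of Ndufb2 0.27 and 0.39. Cox8a differed by 0.35 ± 0.05 and 0.19 ± 0.05 (0.000298 and 0.0174), and Cox7a2l by -0.21 ± 0.07 and -0.32 ± 0.07 (0.044 and 0.00576). The call of Cox7a2l without Dox ended without 8 of 12 arrays, with adjusted p up to 0.176 without APC-WT no Dox replicate 2. That of Cox8a with Dox ended without APC-WT Dox replicates 2 (0.0545) or 3 (0.0867) or APC-KO Dox replicate 1 (0.0681), and that of Ndufb2 without Dox without APC-WT no Dox replicates 1 (0.0758) or 3 (0.0858) or APC-KO no Dox replicates 1 (0.121) or 3 (0.0509). In all, 13 of the 20 calls without Dox and 9 of the 20 with Dox were kept in each of the 12 fits that left out 1 array.

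Genes that passed in one of the comparisons and not in the other included Ndufb5, a membrane-arm subunit, at 0.24 ± 0.04 without Dox (adjusted p = 0.000992) and 0.02 with Dox, and Ndufa3, at 0.08 without and 0.27 ± 0.05 with Dox (0.00234). The test of the change in difference, the interaction of Dox and genotype, passed for none of the 76 genes in limma (5 at an unadjusted p under 0.05). Among all tested genes it passed for 0.0%, with 11.9% at an unadjusted p under 0.05. Ndufb5 had the smallest interaction p, with an interaction of -0.22 ± 0.06 (adjusted p = 0.224), followed by Ndufa5 at 0.27 ± 0.10 (0.323) and Ndufa3 at 0.19 ± 0.07 (0.333). The mean of all probe sets of Ndufa3 gave -0.01.

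With Dox, no subunit gene passed within either genotype. In APC-WT, limma passed 0 of 76 genes (0.0271% of all tested genes), with 1 at an unadjusted p under 0.05 against 15.5% of all tested genes. In APC-KO it passed 0 of 76 (0.542%), with 8 at an unadjusted p under 0.05 against 13.1%. The median difference between Dox and no Dox was 0.03 in APC-WT and 0.02 in APC-KO, with ranges from -0.14 to 0.15 and from -0.30 to 0.23. The median SE of a single gene's difference was 0.05. Both counts were 0 in each of the alternative fits run.

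**Figure D4:**
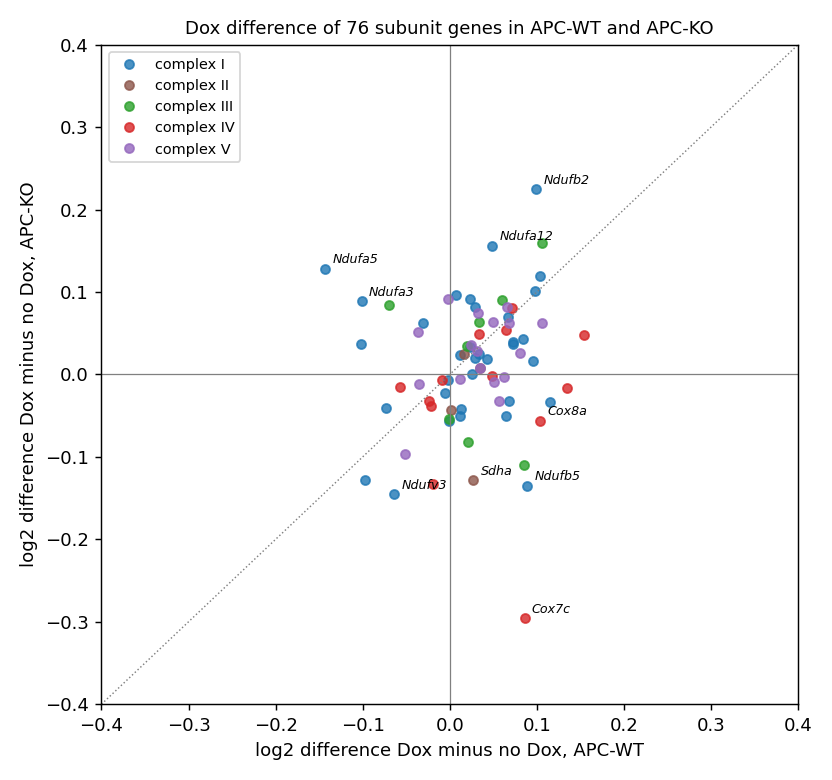
Log2 difference between Dox and no Dox in APC-WT tumours (x axis) and in APC-KO tumours (y axis) for the 76 tested subunit genes, coloured by complex; the dotted line marks equal differences. Apart from Cox7c at -0.30 in APC-KO, a gene read by a dim probe set, the points lie within 0.23 of 0 on both axes, and none passed.

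In APC-WT the smallest p was that of Ndufb5, at 11.36, 11.45 and 11.37 without Dox and 11.47, 11.47 and 11.51 with Dox, which did not overlap. The difference was 0.09 ± 0.04 (95% confidence interval 0.00 to 0.18, adjusted p = 0.315). Cox8a gave 0.10 ± 0.05 (0.342), Ndufa5 -0.14 ± 0.07 (0.339) and Ndufa3 -0.10 ± 0.05 (0.348). In APC-KO, Ndufb5 was at 11.66, 11.66 and 11.59 without Dox and 11.50, 11.48 and 11.52 with Dox, again without overlap and in the opposite order, a difference of -0.14 ± 0.04 (95% confidence interval -0.22 to -0.05, adjusted p = 0.178). Ndufa12, Ndufb2 and Uqcrq gave 0.16, 0.23 and 0.16 in APC-KO (adjusted p = 0.227, 0.257 and 0.281), and Ndufv3 and Sdha -0.15 and -0.13 (0.26 and 0.293). Sdha gave 0.01 with the mean of its probe sets.

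Genes that serve the same system were read from lists chosen by name. Of 43 tested assembly factors, 16 were higher and 2 lower in APC-KO averaged over Dox, with a median of 0.10. They included Uqcc3 and Ttc19, assembly factors of complex III (0.73 ± 0.08 and 0.49 ± 0.08), and Ndufaf4 of complex I (0.45 ± 0.06), while Nubpl and Cox16, of complexes I and IV, were lower by -0.21 and -0.19. Of 15 carriers and subunits outside the symbol rule, 7 were higher and none lower, among them Coq8a of the ubiquinone pathway (0.43 ± 0.11), Pdss2 of the same pathway (0.40 ± 0.06) and Ndufab1, the acyl carrier subunit of complex I (0.30 ± 0.04). Of 76 genes of the mitochondrial ribosome, which translates the subunits encoded in mitochondrial DNA, 26 were higher and 5 lower, with a median of 0.09. These counts stand against 20.9% higher and 15.6% lower among all tested genes.

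Of 9 regulators of nuclear respiratory genes, Pprc1 and Yy1 were higher (0.34 ± 0.05 and 0.18 ± 0.04) and Gabpa lower (-0.22 ± 0.04). Of 12 genes of mitochondrial DNA maintenance and transcription, 3 were higher and 3 lower, with Ssbp1, the single-strand binding protein, at 0.36 ± 0.04 and Tfam, the packaging factor, at -0.15 ± 0.04. Of 16 genes of the TCA cycle and its entry, 3 were higher and 2 lower, with Pdha1, of pyruvate dehydrogenase, at 0.64 ± 0.04, Fh1 at 0.24 ± 0.05 and Cs, citrate synthase, at -0.13 ± 0.04. In this averaged comparison 20.9% of all tested genes were higher in APC-KO and 15.6% lower. For lists of this size, the counts lay close to those shares.

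Glycolysis genes moved with Dox in APC-KO tumours, where no subunit gene passed and 0.542% of all tested genes did. Of 15 tested, 8 were lower with Dox and none higher, with a median of -0.43, including the glucose transporter gene Slc2a1 (-1.23 ± 0.14, adjusted p = 0.00631), Pfkl (-0.64 ± 0.11) and Aldoa (-0.63 ± 0.10). Of 12 targets of hypoxia-inducible factor outside glycolysis, 5 were lower and none higher, with a median of -0.62. In the same comparison the subunit genes had a median of 0.02, and none of the assembly factors, carriers, TCA cycle or mitochondrial ribosome genes passed. In APC-WT no gene of these lists passed, and the glycolysis median was -0.12. Between genotypes, 13.8% of all tested genes were higher and 11.1% lower in APC-KO without Dox, and 11.9% and 7.99% with Dox. Of the 15 glycolysis genes, 4 were higher and 3 lower without Dox (median 0.00), and none higher and 8 lower with Dox (median -0.25). Of the targets of hypoxia-inducible factor, 6 were higher and none lower without Dox (median 0.36), and none higher and 2 lower with Dox (median -0.24). Averaged over Dox these were 2 higher and 6 lower for glycolysis, and 3 higher and 1 lower for the targets. Of all tested genes, 20.9% were higher and 15.6% lower there. The interaction of Dox and genotype passed for no gene of either list, nor for any neutrophil marker, as in limma it passed for 0.0% of all tested genes.

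Some markers of host cells also differed between the genotypes. In the averaged comparison, 20.9% of all tested genes were higher in APC-KO and 15.6% lower. Of 5 T cell markers, 4 were lower in APC-KO, with a median of -0.74, and the mean of the markers per array was 7.05 to 7.39 and 6.74 to 7.05 in APC-WT without and with Dox, and 6.63 to 6.67 and 6.10 to 6.70 in APC-KO. Of 4 endothelial markers 3 were higher (6.46 to 6.94 and 6.57 to 6.82 in APC-WT, 6.84 to 6.99 and 6.90 to 7.12 in APC-KO), and of 6 fibroblast markers 3 were higher (11.61 to 11.83 and 11.54 to 11.69, and 11.54 to 11.94 and 11.85 to 11.87). Of 7 macrophage markers 1 was higher and 1 lower, and of 4 neutrophil markers 2 were higher averaged over Dox. Without Dox all 4 neutrophil markers were higher in APC-KO (median 1.91), against 13.8% of all tested genes. With Dox 2 were lower, against 7.99% of all tested genes, and none higher (median -0.97). Within APC-KO, 2 were lower with Dox than without, where 0.542% of all tested genes passed. No smooth muscle or adipocyte marker passed, of 3 and 1 tested, and of 3 tested colon epithelium markers Krt8 was lower (-1.21 ± 0.29). The difference between the 3' and 5' control probe sets of Gapdh lay between -0.12 and -0.09 in APC-WT and between -0.18 and -0.15 in APC-KO without Dox, without overlap. With Dox it lay between -0.188 and -0.158 in APC-WT and between -0.156 and -0.111 in APC-KO. These ranges also did not overlap, and their order was the opposite. An 18S ribosomal RNA control probe set lay between 9.80 and 10.16 in APC-KO without Dox and between 9.34 and 9.61 in the other 3 groups, without overlap. The part of host cells and of RNA quality in the genotype differences was not tested.

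The differences of the members were set beside those of the genes around them. For each member the nearest tested neighbours on the chromosome were taken, up to 25 on each side and up to 50 in all. They followed the RefSeq gene order of GRCm38.p6, and subunit genes were left out. The median difference of these neighbours was read in the averaged comparison. This measure was chosen after the differences had been seen. It correlated with the member's own difference at Pearson r = 0.68 across the 76 genes, and at 0.39 for all 11033 tested genes placed on a chromosome. Of the 28 higher genes, 27 had neighbours with a median above 0, the exception being Ndufs5 (-0.02), and of the 6 lower genes 5 had neighbours with a median below 0, the exception being Cox7a2l (0.04). Of all tested genes that were higher and placed on a chromosome, 79.9% of 2309 had neighbours with a median above 0, and of those that were lower, 68.8% of 1725 had neighbours with a median below 0. Whatever their own difference, 58.3% of all placed genes had a neighbour median above 0. Several of the members' medians lay close to 0, among them those of Ndufb6 (0.01), Ndufc2 (0.01), Ndufv3 (0.01) and Uqcrh (-0.01). The points are across genes, and neighbouring windows share genes.

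**Figure D5:**
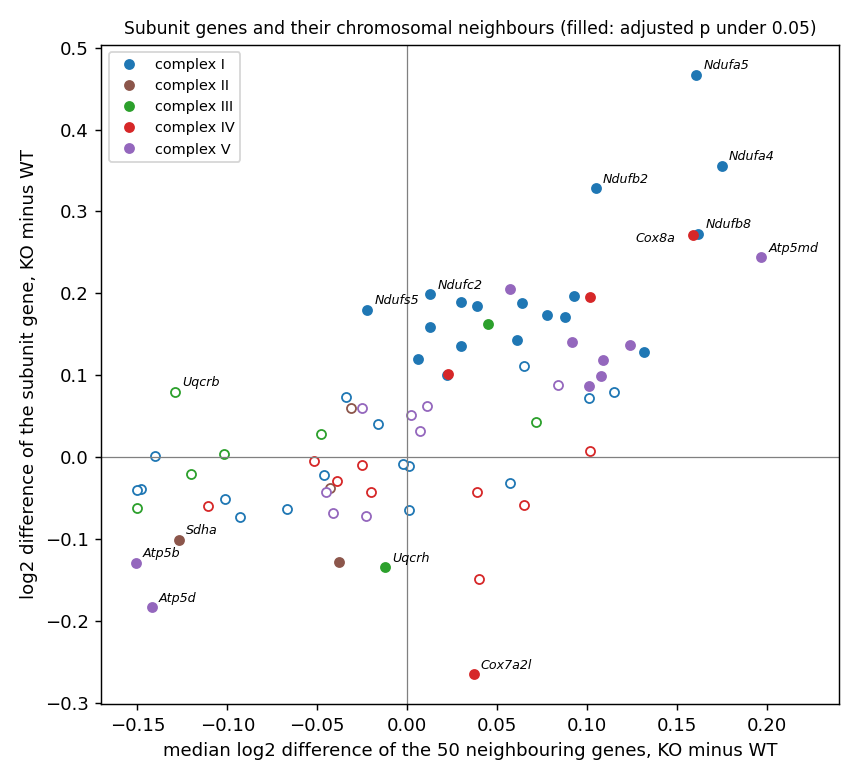
Median log2 difference between APC-KO and APC-WT of up to 50 neighbouring genes (x axis) against the difference of the subunit gene itself (y axis), averaged over Dox, for the 76 tested subunit genes. Filled points passed at an adjusted p under 0.05. Ndufa5, Ndufa4 and Ndufb2 lie at the upper right with neighbour medians of 0.16, 0.17 and 0.10, Atp5b and Atp5d at the lower left with -0.15 and -0.14, and Cox7a2l falls outside that diagonal.

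The 3 genes with the largest rise, Ndufa5, Ndufa4 and Ndufb2, all lie on chromosome 6. Of 565 other tested genes there, 22.3% were higher and 22.1% lower, with a median of -0.01, and the other member on it, Ndufa9, was at -0.05 and did not pass. All 5 members on chromosome 19 (Ndufb8, Cox8a, Atp5md, Ndufs8 and Ndufv1) were higher, where 47.0% of 394 other tested genes of that chromosome were higher too, with a median of 0.14. Atp5b and Atp5d lie on chromosome 10, where 39.7% of 532 other genes were lower (median -0.11), and Sdha on chromosome 13, where 40.0% of 403 were lower (median -0.11). The part of chromosome position in the differences was not tested.

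With each array's neighbour median subtracted from every gene, 26 of 76 members passed in the averaged comparison, 22 higher and 4 lower, against 33.3% of all genes so fitted (17.2% higher and 16.1% lower). Of the 34 genes that passed before, 19 also passed then (55.9% of the 34 and 73.1% of the 26). Ndufa5 was at 0.28 (adjusted p = 0.000404), Ndufb2 at 0.22 (0.0104), Ndufc2 at 0.19 (0.000159), Ndufa4 at 0.15 (0.00281), Ndufb8 and Cox8a at 0.10 (0.0116 and 0.0169) and Cox7a2l at -0.31 (0.000553). Of the genes of complex V that had passed, only Atp5g1 still did, at 0.15 (0.0037). Atp5md and Atp5d no longer passed, at 0.05 (0.283) and -0.06 (0.111). Neither did Atp5mpl, Atp5o, Atp5g3 and Atp5j, at 0.05, 0.02, 0.01 and 0.01. Atp5b and Sdha turned to 0.03 and 0.02, and Atp5c1 to -0.02. Of the 7 genes that passed only then, Uqcrb, a subunit of complex III, was the largest at 0.21 (0.000325), and Cox4i1 was lower at -0.09 (0.00913).

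Probe sets of the same gene mostly gave the same direction. Of 44 members with more than 1 probe set above the floor, all probe sets shared 1 sign in 36, and of the 22 of these that passed in the averaged comparison, in 21, the exception being Sdhd. Of the 76 probe sets used, 5 carried the suffix x and 11 the suffix s, which the array maker gives to probe sets that can detect more than 1 transcript family or related genes. Cox7a2l and Cox8a were read by x probe sets, and their other probe sets above the floor gave -0.27, -0.31 and 0.25.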

How the data were processed

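RNA of 12 tumours was measured on Affymetrix arrays. The deposited values are log2 expression values; that they are log2 was read from their range (1.86 to 14.16), and per the submitters' processing notes the authors used MAS5, with no version given. Its background and scaling settings are not stated in those notes. The table held 45101 probe sets: 34945 with 1 gene symbol, 932 with several, 9160 with none and 64 controls. Each of 18193 genes was read by its brightest probe set, and the 11070 genes with a mean of at least 5.55 were tested. The 9 probe sets that name a member together with another gene were left out. Group means were fitted with limma 3.58.1 in R 4.3.3 (lmFit, eBayes with a trend) on all 12 arrays, tests were 2-sided, and p-values were adjusted by Benjamini-Hochberg over all tested genes with a threshold of 0.05. The script was tested on simulated data. The number of arrays limits the precision. The members and lists were chosen with earlier results of these data known. Genes were named by a written rule: up to 5 that passed per direction and comparison, those of smallest p where fewer than 3 passed, tissue-restricted isoforms with their partners, and complex II; further members, the neighbour values and the chromosome summaries were added after their values were seen. Non-members were named up to 3 per list, by size. Motif searches used Python 3.11.15. Alternatives are given in the closing section.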

Additional observations from a re-analysis of the deposited data

How the results depend on the processing

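Of the 74 calls in the genotype comparisons, the 75th percentile filter kept all 74, the replicate block 70, array quality weights 69, quantile normalization and no filter 63 each, the mean of probe sets 59 and eBayes without a trend 58. Fitting only the groups compared kept 32 of the 40 calls made without and with Dox. Averaged over Dox, leaving out 1 array gave 26 to 34 genes (22 to 28 higher, 4 to 7 lower), and quantile normalization gave 10 lower. Without Dox, leaving out 1 array gave 16 to 20 (13 to 18 higher, 0 to 5 lower), with 0 lower without APC-KO no Dox replicate 3. There, 1 gene was lower without a trend, with only the groups compared and with neighbour-centred values, and 5 with quantile normalization, and neighbour-centred values gave 11 genes, 10 higher. With Dox, leaving out 1 array gave 10 to 19 (9 to 15 higher, 1 to 6 lower), the mean of probe sets 13 (8 higher), no trend 13 (3 lower), array quality weights 33 (26 higher) and neighbour-centred values 11 (8 higher, 3 lower). For Dox within a genotype and for the interaction, leaving out 1 array gave 0 to 0.

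Replicate numbers did not pair the arrays: the deviations of 18 same-numbered pairs correlated between -0.22 and 0.18, and 4 pairs were over 0.1. With the replicate block, 32 genes passed averaged over Dox, 21 without Dox and 18 with Dox.

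Directions turned in 12 values. The mean of probe sets turned Atp5g1 to -0.116 without Dox, -0.166 with Dox and -0.141 averaged, Sdha with Dox in APC-KO to 0.007, and the interactions of Ndufa3 and Sdha to -0.007 and 0.003. Neighbour-centred values, an alternative chosen after seeing the data, turned Ndufb5 with Dox in APC-KO to 0.007, Atp5b to 0.043 without Dox, 0.008 with Dox and 0.026 averaged, Atp5c1 averaged to -0.023 and Sdha averaged to 0.018. They kept 34 of the 74 calls. The cause was not tested. Of the averaged medians, neighbour-centred values moved complex III most, from 0.02 to 0.10, complex V from 0.06 to 0.02, complex II from -0.07 to 0.01 and complex IV from -0.03 to 0.01. Complex III was at -0.01 with quantile normalization and -0.03 with the mean of probe sets. Genes near the floor and genes under it, 5 members among them, allow little to be said of small changes.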

Other observations

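Probe sets that name a subunit gene together with another gene were left out of the report, and they are given here as values with no test. Ndufb4, whose single-symbol probe set lay under the floor at 3.81, was read with its copies Ndufb4b and Ndufb4c by 2 bright probe sets. The first had means of 10.37 ± 0.02 (SD, n = 3) in APC-WT without Dox, 10.42 ± 0.09 in APC-WT with Dox, 10.57 ± 0.04 in APC-KO without Dox and 10.70 ± 0.03 in APC-KO with Dox. The second had 10.41 ± 0.07, 10.53 ± 0.05, 10.64 ± 0.04 and 10.72 ± 0.03 in the same order. Ndufa11 with its copy Ndufa11b had 9.78 ± 0.04, 9.86 ± 0.04, 10.06 ± 0.07 and 9.99 ± 0.08. A second, dimmer probe set of the same pair had 6.31 ± 0.09, 6.45 ± 0.09, 6.24 ± 0.22 and 6.39 ± 0.13, with the APC-KO means slightly under the APC-WT means and differences within the SDs. Ndufs6 with Ndufs6b had 9.77 ± 0.16, 9.89 ± 0.02, 9.70 ± 0.08 and 9.74 ± 0.10, with group means closer together than those of Ndufb4 and of the brighter Ndufa11 probe set. Ndufs5 with its pseudogene had 10.90 ± 0.05, 10.91 ± 0.06, 10.96 ± 0.10 and 11.00 ± 0.04, a narrower spread of means than the 9.69 to 9.88 of the probe set that names Ndufs5 alone. Ndufa13 with Yjefn3 was read by a dim probe set at 6.55 ± 0.04, 6.59 ± 0.02, 6.30 ± 0.11 and 6.38 ± 0.10, lower in APC-KO, while the probe set that names Ndufa13 alone was higher there, and by another under the floor at 3.86. Ndufb2 with Adck2 had 6.42 ± 0.05, 6.37 ± 0.13, 6.44 ± 0.11 and 6.55 ± 0.01.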
